A study of Mus musculus with 6 samples.

Results

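The cytochrome P450 genes of whole mouse kidney, outside the Cyp4a subfamily and Cyp2b9, Cyp2b10, Cyp24a1, Cyp27b1 and Cyp51, were compared between wild-type (WT) mice and mice with a proximal tubule knockout of Pck1 (Pck1-CKO). Members were taken by symbol, as Cyp followed by digits, letters and digits, from array probes named through their RefSeq accession. The rule gave 84 P450 genes with 102 probes, of 23785 named genes on the array. Of these, 55 gave enough signal to be tested, of 17135 genes tested in all. Total RNA of 6 kidney samples, 3 per group, was labelled with Cy3 and hybridised to 6 one-colour Agilent arrays. All animals had the C57BL/6J strain label and were killed at 32 weeks of age. The Pck1-CKO mice carried Pck1 flox/flox with a γGT-Cre tg/+ transgene, whose promoter directs Cre to the renal proximal tubule. The controls, labelled wild-type, were littermates matched for age and sex. Controls from that breeding were Pck1 flox/+ without or with γGT-Cre tg/+, or had both alleles floxed without Cre, so WT mice also carried a floxed allele. Which of these each WT array holds is not known here. Nothing in the labels says that each array came from its own mouse, so the spread behind each p-value may be technical.

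P450 enzymes are heme proteins that insert an oxygen atom into lipids, hormones, bile acids, vitamins and drugs. Microsomal members take electrons from P450 reductase, encoded by Por, and mitochondrial members from ferredoxin. In the kidney, Cyp2c and Cyp2j enzymes make epoxides of arachidonic acid and family 4 enzymes hydroxylate fatty acids and eicosanoids, and much of this activity lies in the proximal tubule. Several mouse renal P450 genes are controlled by sex hormones.

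Pck1, the targeted gene, encodes cytosolic phosphoenolpyruvate carboxykinase. Its normalised log2 signal was 6.29, 6.32 and 5.63 on the WT arrays and 6.44, 6.60 and 6.90 on those labelled Pck1-CKO. It changed by 0.56 ± 0.22 on the log2 scale (SE, 3 arrays a group; limma adjusted p = 0.152). All values with the knockout label lay above those of WT, so no loss was seen. Whether its 1 probe lies inside the deleted exons was not known here, and a probe outside them checks nothing. All directions below are those of the libraries so labelled. Signal is the log2 of each probe's processed intensity minus the array's 75th percentile, so a level of 0 lies at that percentile, and errors of log2 changes are standard errors. Between 37118 and 38707 probes per array lay well above background. The WT arrays lay in slide row 1 and the Pck1-CKO arrays in row 2, so genotype and slide row cannot be told apart. All 12 proximal tubule markers were measured and 0 passed the test (limma, at an unadjusted p under 0.05, 2 higher and 1 lower). Their summed level, on the linear scale relative to the 75th percentile, was 1313 to 1370 in WT and 1336 to 1351 in Pck1-CKO. Adipose markers were higher in Pck1-CKO in 11 of 11 genes, and 5 passed. Their summed level was 17.3 to 39.2 in WT and 124 to 183 in Pck1-CKO. The summed level of 9 hepatocyte markers was 44.9 to 52.5 in WT and 65.8 to 96.1 in Pck1-CKO, with 1 that passed, Serpina1a. Without Serpina1a the other 8 summed to 7.56 to 9.73 in WT and 7.28 to 10.8 in Pck1-CKO, which overlap. Mup20 and Serpina3k gave no signal well above background in WT. Of the 9 hepatocyte changes 8 lay above 0, and Fgb went the other way, by -1.07 ± 0.42 (limma adjusted p = 0.149). The part of these shifts in the P450 values below was not tested.

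Most P450 genes stayed within 0.5 on the log2 scale, as did most of all genes tested. Cyp2j13 and Cyp4f15 rose and Cyp39a1 fell in Pck1-CKO kidney, at a limma adjusted p under 0.05 over all genes. Thus 3 of 55 tested P450 genes changed, or 5.45%, where 8.04% of all 17135 genes did (4.34% higher and 3.7% lower). This share lies near the background and is no result about the family. The log2 changes ran from -0.91 to 1.15, and 52 of 55 were under 0.5 in size, as were 15949 of all 17135 genes. Their median was 0.036, against 0.0091 over all genes, with 31 above 0 and 24 below. The median size of a change was 0.18 for the P450 genes and 0.12 for all genes, and the median SE was 0.131 and 0.068. The groups did not overlap in 10 of 55 P450 genes (18.2%; 5 higher and 5 lower), against 38.3% of all genes (21.9% higher and 16.4% lower). With 3 arrays per group, the calls rested on most arrays. Without WT 1, WT 2, Pck1-CKO 1 or Pck1-CKO 2 the count of changed P450 genes was 0. In each of these fits 2 to 4 were higher and 2 to 4 lower at an unadjusted p under 0.05 (limma). Few genes of any kind passed there, at 0.409%, 0.204%, 0.146% and 0.169% of all genes in that order. Without Pck1-CKO 3 the count was 3 higher and 1 lower, where 8.93% of all genes passed. Without WT 3 it was 6 higher and 1 lower, where 7.99% passed. Scaling to the 75th percentile of probes above background on all arrays gave 2 higher and 2 lower, where 7.95% of all genes passed. Correcting the background with normexp gave the same counts, where 11.2% passed, and Cyp4v3 was the added gene in both. Without the filter on dim probes the count was 0 (limma, 5 higher and 5 lower by unadjusted p), where 0.597% passed. With array weights it was 13 higher and 4 lower, where 34.4% of all genes passed. In whole kidney, fewer cells of a type and less RNA per cell cannot be told apart.

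**Figure D1:**
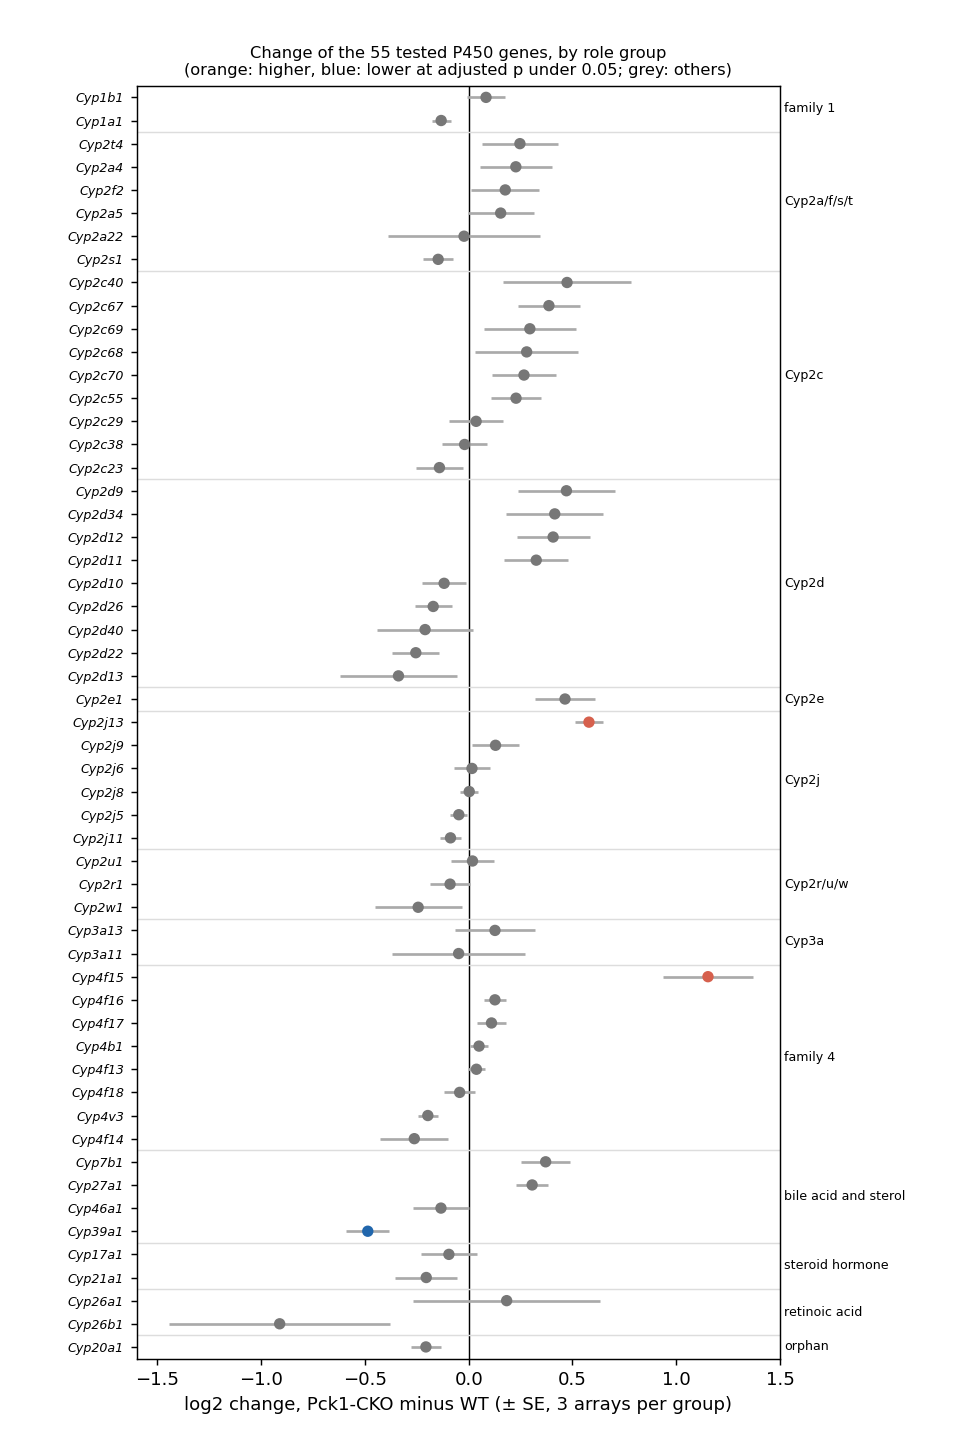
The log2 change (Pck1-CKO minus WT, horizontal axis) of the 55 tested P450 genes, by role group, with bars for 1 SE of the limma fit and n = 3 arrays per group. Cyp2j13 at 0.58, Cyp4f15 at 1.15 and Cyp39a1 at -0.49 are the genes that passed, and Cyp26b1, at -0.91, has an SE of 0.53.

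Among the Cyp2j genes, which encode epoxygenases of arachidonic acid, 1 of 6 tested members rose. The normalised log2 signal of Cyp2j13 (probe A_52_P347956) was 4.53, 4.5 and 4.5 on the WT arrays and 5.15, 5.17 and 4.95 on the Pck1-CKO arrays. Every Pck1-CKO array lay above every WT array. The log2 change was 0.58 ± 0.07, or 1.49-fold, with limma adjusted p = 0.0199. The array holds 3 other Cyp2j13 probes, and their differences were 0.21, 0.77 and 0.60, all in the same direction. The other 5 tested Cyp2j genes changed by -0.09 to 0.13 on the log2 scale and did not pass. Cyp2j5, an abundant renal epoxygenase, had a log2 signal of 6.40, 6.34 and 6.43 on the WT arrays and 6.34, 6.36 and 6.33 on the Pck1-CKO arrays. Its groups overlapped, at a change of -0.05 ± 0.04 (limma adjusted p = 0.469), which turned to 0.029 when arrays were scaled to the median. Cyp2j11 changed by -0.09 ± 0.05 (limma adjusted p = 0.296). The call for Cyp2j13 was lost without WT 1, WT 2, Pck1-CKO 1 or Pck1-CKO 2 (limma adjusted p 0.0786 to 0.0833, log2 change 0.54 to 0.59).

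The bases before the starts of Cyp2j13 and of the nearest tested gene of its cluster, Cyp2j11, are shown because the former rose and the latter did not pass. Both are the 250 bases before the gene's RefSeq start in GRCm38.p6, on the minus strand, at chr4:96077548-96077797 for Cyp2j13 and chr4:96348681-96348930 for Cyp2j11. Capitals mark the letters GCGTG of the xenobiotic response core and GGGCGG of the GC box core.

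Cyp2j13: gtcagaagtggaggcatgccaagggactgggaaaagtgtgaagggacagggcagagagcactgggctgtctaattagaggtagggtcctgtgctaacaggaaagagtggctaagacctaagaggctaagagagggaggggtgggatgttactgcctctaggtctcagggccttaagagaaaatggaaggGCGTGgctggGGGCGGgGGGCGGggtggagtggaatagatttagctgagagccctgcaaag
Cyp2j11: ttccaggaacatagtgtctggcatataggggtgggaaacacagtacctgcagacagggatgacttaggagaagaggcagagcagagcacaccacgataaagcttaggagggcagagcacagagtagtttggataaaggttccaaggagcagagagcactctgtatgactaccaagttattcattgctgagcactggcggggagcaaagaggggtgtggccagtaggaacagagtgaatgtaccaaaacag

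Counting the base before the start as -1, GCGTG began at -61 in Cyp2j13, and GGGCGG at -51 and -44. None of the 8 motifs searched lay in the Cyp2j11 window. Over all 27025 promoter windows, 28.3% held GCGTG and 33.0% held GGGCGG on either strand, so neither is rare. A match of letters is a description and not a binding site.

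In family 4 outside Cyp4a, whose enzymes hydroxylate fatty acids, leukotrienes and other eicosanoids, 1 of 8 tested genes rose. Cyp4f15 (probe A_51_P136303), a gene of the leukotriene-hydroxylating Cyp4f subfamily, had a log2 signal of -3.96, -4.70 and -4.10 in WT. In Pck1-CKO the values were -2.94, -3.02 and -3.34. The groups did not overlap, and the gene was dim on every array, though well above background on 6 of 6. The log2 change was 1.15 ± 0.22, or 2.22-fold, with limma adjusted p = 0.0392. With normexp background correction and its offset of 50 the change was 0.55 (limma adjusted p = 0.0114). That is less than the processed signal gives, but such an offset shrinks the changes of dim probes. The call was lost without WT 3 (limma adjusted p = 0.0582) and without any of WT 1, WT 2, Pck1-CKO 1 and Pck1-CKO 2 (0.0815 to 0.139).

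Cyp4v3, the mouse counterpart of the fatty acid hydroxylase CYP4V2, had a log2 signal of -0.57, -0.47 and -0.47 on the WT arrays and -0.73, -0.69 and -0.67 on the Pck1-CKO arrays. WT values were all higher, but the change of -0.20 ± 0.05 did not pass (limma adjusted p = 0.0605). Cyp4f16 changed by 0.13 ± 0.05 (limma adjusted p = 0.173), and its other probe differed by -0.06. Cyp4b1, a bright renal gene that oxidises fatty acids and xenobiotics, lay between 7.01 and 7.12 in WT and between 7.09 and 7.14 in Pck1-CKO. Its change was 0.05 ± 0.04 (limma adjusted p = 0.471). Cyp4f14, the neighbour of Cyp4f15, changed by -0.26 ± 0.16 (limma adjusted p = 0.323).

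The bases before the starts of Cyp4f15 and Cyp4f14 are given for the same reason, in GRCm38.p6 at chr17:32685409-32685658 (plus strand) for Cyp4f15 and chr17:32917357-32917606 (minus strand) for Cyp4f14. Capitals mark CCGCCC, the GC box core read on the other strand, and CACGC, the xenobiotic response core read on the other strand.

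Cyp4f15: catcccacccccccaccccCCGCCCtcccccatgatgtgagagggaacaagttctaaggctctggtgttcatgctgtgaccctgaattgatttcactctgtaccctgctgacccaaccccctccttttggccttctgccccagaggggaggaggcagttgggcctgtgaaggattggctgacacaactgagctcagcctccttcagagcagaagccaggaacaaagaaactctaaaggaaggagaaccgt
Cyp4f14: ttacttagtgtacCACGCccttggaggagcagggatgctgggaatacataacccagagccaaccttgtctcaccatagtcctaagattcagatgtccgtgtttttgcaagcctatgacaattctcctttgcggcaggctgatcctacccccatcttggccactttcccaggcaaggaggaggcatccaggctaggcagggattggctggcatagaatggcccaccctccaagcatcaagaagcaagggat

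These neighbours shared none of the 8 motifs. The match began at -231 from the start in Cyp4f15 and at -237 in Cyp4f14.

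Of the 4 tested genes of bile acid and sterol oxidation, 1 fell. Cyp39a1 (probe A_55_P2086143), an oxysterol hydroxylase that leads sterols toward bile acids, had a log2 signal of 1.48, 1.5 and 1.25 on the WT arrays and 0.80, 0.89 and 1.08 on the Pck1-CKO arrays. Every WT array lay above every Pck1-CKO array. The change was -0.49 ± 0.10, which puts WT 1.40-fold above Pck1-CKO (limma adjusted p = 0.0484). The call was lost without WT 1, WT 2, Pck1-CKO 1 or Pck1-CKO 2 (limma adjusted p 0.127 to 0.161). It was also lost in the fit that averaged the probes of each gene (limma adjusted p = 0.0509). Cyp39a1 has 1 probe, so its own values and change were the same in that fit.

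Cyp27a1, a mitochondrial sterol hydroxylase, had a log2 signal of -0.84, -0.84 and -0.60 on the WT arrays and -0.46, -0.45 and -0.45 on the Pck1-CKO arrays. All Pck1-CKO values were above all WT values. The change of 0.31 ± 0.08 did not pass (limma adjusted p = 0.0620) and passed without WT 3 (0.0291). Cyp7b1, which hydroxylates oxysterols and steroids, had a log2 signal of 5.12, 5.12 and 5.34 on the WT arrays and 5.67, 5.68 and 5.34 on the Pck1-CKO arrays. The third array of each group gave the same level, and the other 4 did not overlap. The change of 0.37 ± 0.12 did not pass (limma adjusted p = 0.0994) and passed without Pck1-CKO 3 (0.0414). The other Cyp7b1 probe differed by 0.38. Cyp7a1 and Cyp8b1, which make the classical bile acids in liver, were not well above background on any array.

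**Figure D2:**
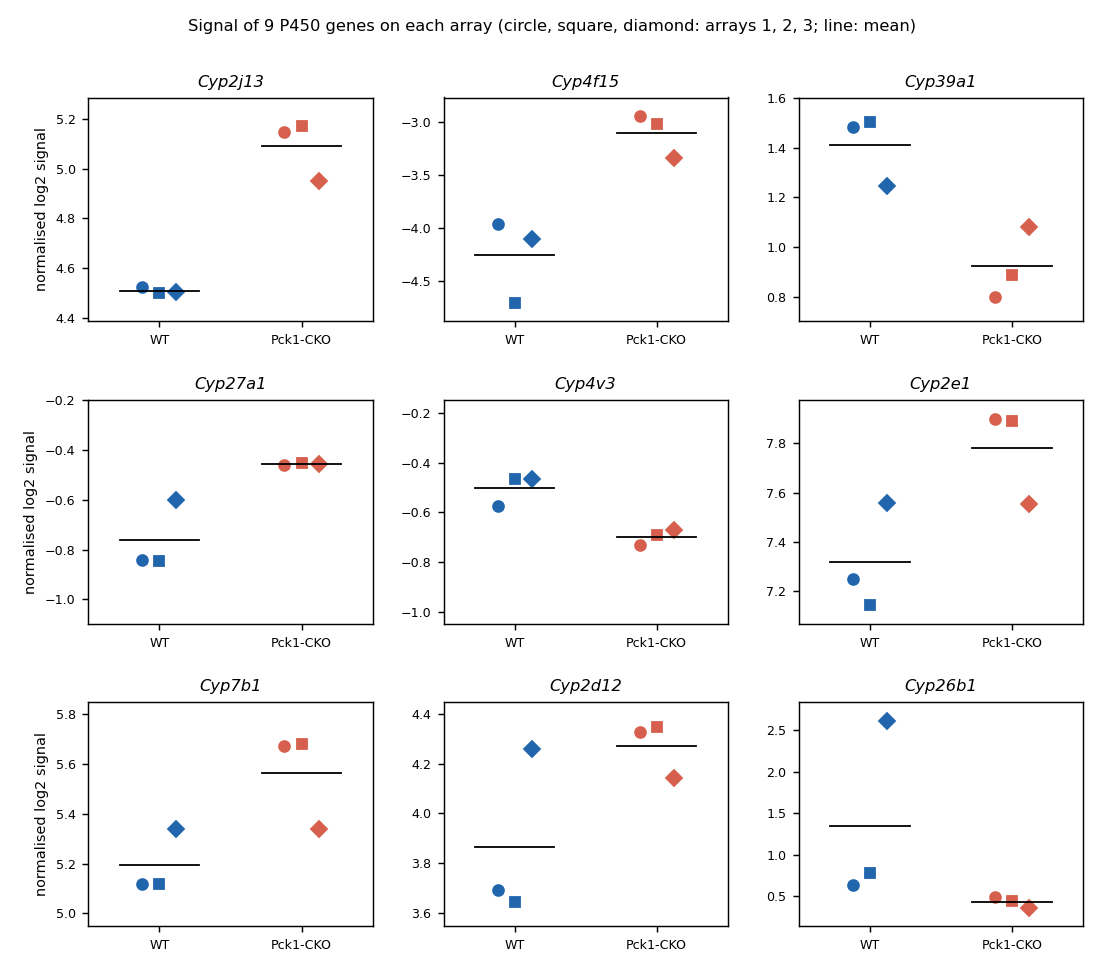
Normalised log2 signal on each of the 6 arrays for 9 P450 genes, 1 panel per gene, with circles, squares and diamonds for arrays 1, 2 and 3 of a group and a line at the group mean. The groups are apart for Cyp2j13, Cyp4f15, Cyp39a1, Cyp27a1 and Cyp4v3, while for Cyp2e1 and Cyp7b1 the diamonds of WT and Pck1-CKO lie at about 1 level (7.56 and 7.55, and 5.34 in both groups), and for Cyp26b1 the WT diamond stands alone at 2.61.

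Cyp2e1, which oxidises ethanol, acetone and other small molecules and is higher in kidneys of male mice, did not pass. Its log2 signal was 7.25, 7.14 and 7.56 on the WT arrays and 7.90, 7.89 and 7.55 on the Pck1-CKO arrays. Pck1-CKO 1 and 2 lay above all WT arrays, and Pck1-CKO 3 lay level with WT 3. The change was 0.46 ± 0.15 (limma adjusted p = 0.0984). The other Cyp2e1 probe differed by 0.59.

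All 9 Cyp2d genes on the array were tested, a cluster of drug, steroid and fatty acid hydroxylases, and 0 passed (limma, also 0 at an unadjusted p under 0.05). Their changes ran from -0.34 to 0.47, with 4 above 0 and 5 below. Cyp2d9, a steroid hydroxylase that is higher in male mice, had a log2 signal of 2.84, 2.81 and 3.40 on the WT arrays and 3.68, 3.69 and 3.10 on the Pck1-CKO arrays. WT 3 lay above the other WT arrays and Pck1-CKO 3 below the other Pck1-CKO arrays, so the groups overlapped. The change was 0.47 ± 0.23 (limma adjusted p = 0.225). Cyp2d12 had 3.69, 3.65 and 4.26 on the WT arrays against 4.33, 4.35 and 4.14 on the Pck1-CKO arrays. The change was 0.41 ± 0.18 (limma adjusted p = 0.182). Cyp2d11 had 5.75, 5.70 and 6.15 on the WT arrays against 6.29, 6.31 and 5.97 on the Pck1-CKO arrays. Cyp2d34 changed by 0.41 ± 0.23 (limma adjusted p = 0.280). In all 4 of these genes WT 3 was the highest WT array and Pck1-CKO 3 the lowest Pck1-CKO array. Cyp2d22 changed the other way, by -0.25 ± 0.11 (limma adjusted p = 0.192). For Cyp2d26 the brighter probe differed by -0.17 and the other probe by 0.30, so its direction depends on the probe.

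In the group of Cyp2a, Cyp2b, Cyp2f, Cyp2g, Cyp2s and Cyp2t, 0 of 6 tested genes passed (limma, also 0 at an unadjusted p under 0.05). Cyp2a4, a testosterone hydroxylase, had a log2 signal of 6.29, 6.30 and 6.88 on the WT arrays and 6.80, 6.75 and 6.60 on the Pck1-CKO arrays. WT 3 was the highest of all 6 arrays. The change was 0.23 ± 0.17 (limma adjusted p = 0.410). Cyp2a5, a close paralog known for coumarin hydroxylation, had 6.06, 6.10 and 6.63 on the WT arrays and 6.46, 6.44 and 6.35 on the Pck1-CKO arrays. The probes of Cyp2a4, Cyp2a5 and Cyp2a22 may share signal, and Cyp2a22 changed by -0.02 ± 0.36. Without WT 3 these 3 changed by 0.42, 0.34 and 0.41 and passed (limma adjusted p = 0.0447, 0.0396 and 0.0464), as did Cyp2d12 at 0.60 (0.0343). Cyp2s1 changed by -0.15 ± 0.07 (limma adjusted p = 0.222) and Cyp2t4 by 0.25 ± 0.18 (0.399).

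The third arrays stood apart in many of these genes, a pattern chosen after the values were seen. WT 3 was the highest WT array and Pck1-CKO 3 the lowest Pck1-CKO array in 20 of 55 P450 genes (36.4%), against 2573 of 17135 genes (15%). The 20 include Cyp2e1, Cyp7b1, Cyp2d9, Cyp2d11, Cyp2d12, Cyp2d34, Cyp2a4 and Cyp2a5, of which those of 1 cluster may share probe signal. In 13 of the 20 the change was above 0. The median size of the difference between 2 arrays over the P450 genes was 0.108 for WT 1 and 2 and 0.067 for Pck1-CKO 1 and 2. It was 0.255 and 0.226 for WT 3 against WT 1 and 2, and 0.221 and 0.194 for Pck1-CKO 3 against Pck1-CKO 1 and 2. Over all genes the same medians were 0.065 (WT 1 and 2) and 0.064 (Pck1-CKO 1 and 2), with 0.113 and 0.102 where WT 3 entered and 0.104 and 0.086 where Pck1-CKO 3 entered.

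**Figure D3:**
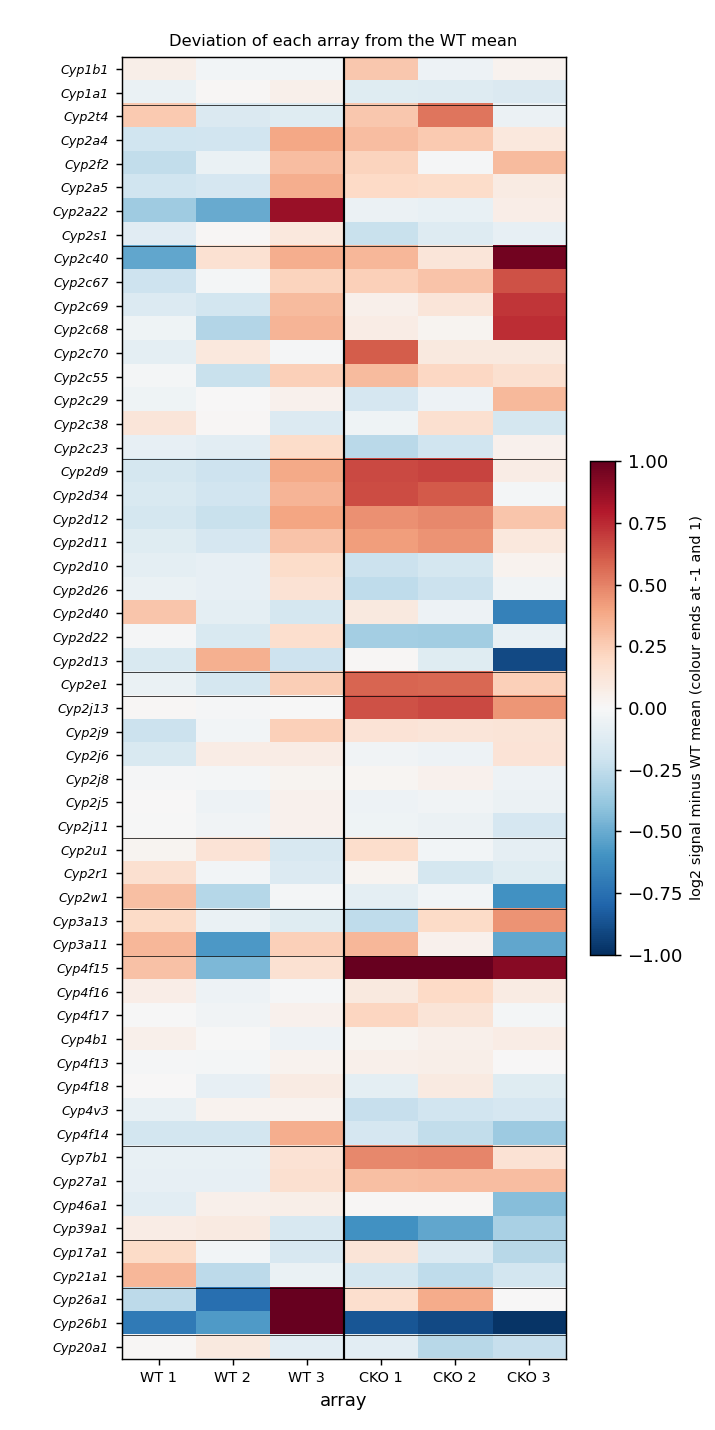
Map of the log2 signal minus the WT mean for 55 P450 genes (rows, by role group) on 6 arrays (columns), with colour for the difference. WT 3 and Pck1-CKO 3 differ from the other arrays of their group in the Cyp2a, Cyp2d and Cyp2e1 rows, and Cyp26b1 is high on WT 3.

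Genes with a known sex bias in mouse kidney were also read. The 4 Y-linked genes Ddx3y, Kdm5d, Eif2s3y and Uty were well above background on all 6 arrays and Xist on 0. Of 3 genes known to be higher in males, Slco1a1 (0.52 ± 0.10; limma adjusted p = 0.0392) and Odc1 (0.64 ± 0.13; 0.0442) rose, and Kap changed by -0.06. Odc1 was 6.54, 6.55 and 6.10 in Pck1-CKO, lowest on the third array. Of 3 known to be higher in females, Slc7a12 (-2.08 ± 0.25; limma adjusted p = 0.0200) and Prlr (-1.59 ± 0.21; 0.0236) fell. The remaining gene, Akr1c18, had the opposite sign and did not pass, at 1.16 ± 0.52 (limma adjusted p = 0.196). Its values were 3.61, 3.69 and 2.91 on the WT arrays and 5.10, 5.16 and 3.41 on the Pck1-CKO arrays. In Slco1a1, Kap, Odc1, Prlr and Akr1c18, WT 3 was not the highest WT array. In Slc7a12 it was (1.92), but Pck1-CKO 3 (-0.76) was not the lowest Pck1-CKO array. In Slco1a1, Kap, Odc1 and Akr1c18 Pck1-CKO 3 was the lowest Pck1-CKO array, and in Prlr it was the highest. The part of these genes in the P450 values was not tested.

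Among the Cyp2c genes, which include epoxygenases and drug hydroxylases, 0 of 9 tested genes passed (limma, at an unadjusted p under 0.05, 1 higher and 0 lower). Their median change was 0.27, with 7 above 0 and 2 below. Cyp2c67 had a log2 signal of -2.09, -1.90 and -1.66 on the WT arrays and -1.64, -1.6 and -1.24 on the Pck1-CKO arrays. The groups did not overlap, though WT 3 and Pck1-CKO 1 lay close. The change was 0.39 ± 0.15 (limma adjusted p = 0.149). Its near copies Cyp2c40, Cyp2c68 and Cyp2c69 changed by 0.47, 0.28 and 0.29 (limma adjusted p 0.340 to 0.481), and in all 4 genes the third array was the highest of each group. They may share probe signal, so they are not separate evidence. Cyp2c70 changed by 0.27 ± 0.15 (limma adjusted p = 0.285) and Cyp2c55 by 0.23 ± 0.12 (0.257).

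Several Cyp2c promoters share CAAAGTCCA, the core letters bound by HNF4A, a nuclear receptor of liver and proximal tubule. It lay in 9 of 67 P450 promoter windows (13.4%) and in 102 of 27025 windows in all (0.377%), each the 250 bases before a start, read on both strands. The 9 matches are shown with 11 bases on either side, in capitals and on the strand of the gene, since among the 8 motifs this one had the largest ratio of P450 windows to all windows. Of the 9 genes, 6 are Cyp2c genes of 1 cluster and 4 of those are near copies, so the matches are not independent, and no chance test was made.

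Cyp2c40: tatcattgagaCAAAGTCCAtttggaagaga
Cyp2c65: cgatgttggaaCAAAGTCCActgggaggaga
Cyp2c67: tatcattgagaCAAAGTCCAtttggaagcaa
Cyp2c68: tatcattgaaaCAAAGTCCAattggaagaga
Cyp2c69: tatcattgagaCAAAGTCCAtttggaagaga
Cyp2c70: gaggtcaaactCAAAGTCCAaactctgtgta
Cyp3a11: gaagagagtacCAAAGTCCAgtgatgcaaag
Cyp3a16: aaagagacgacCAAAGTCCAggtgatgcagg
Cyp8b1: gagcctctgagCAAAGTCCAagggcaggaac

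The matches lay 45 to 125 bases before the start. Of these genes, 6 were tested and 0 passed (limma, with an unadjusted p under 0.05 for Cyp2c67), with changes of 0.27 to 0.47 for the Cyp2c genes and -0.05 ± 0.32 for Cyp3a11. Hnf4a itself changed by 0.04 ± 0.04 (limma adjusted p = 0.532). Cyp2c65, Cyp3a16 and Cyp8b1 were not well above background on any array.

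Other motifs were compared over the same windows, for 67 of 84 P450 genes with a RefSeq promoter. TATAAA, the TATA box core, lay in 37.3% of P450 windows and 13.0% of all. AGGTCA, a hexamer of nuclear receptors, lay in 22.4% and 13.8%, and a direct repeat of it with 1 base between in 0 of 67 and in 0.037% of all. GTTAAT of HNF1 lay in 10.4% and 6.54%, and AGAACA of steroid receptors in 19.4% and 16.1%. GCGTG lay in 19.4% and 28.3%, and GGGCGG in 22.4% and 33.0%. A window without a match says nothing about the factor.

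Family 1 holds targets of the aryl hydrocarbon receptor, and 0 of 2 tested genes passed (limma, at an unadjusted p under 0.05, 0 higher and 1 lower). Cyp1a1 had a log2 signal of -3.49, -3.41 and -3.37 on the WT arrays and -3.54, -3.55 and -3.57 on the Pck1-CKO arrays. WT was higher on every array. The change was -0.13 ± 0.05 (limma adjusted p = 0.116). Cyp1b1 changed by 0.08 ± 0.09 (limma adjusted p = 0.558), which turned to -0.0077 without Pck1-CKO 1. In the Cyp3a subfamily of drug hydroxylases, 2 of 7 genes were tested. Cyp3a13 changed by 0.13 ± 0.19 and Cyp3a11 by -0.05 ± 0.32 (limma adjusted p = 0.686 and 0.934), and both signs turned under other settings.

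Cyp26b1, which breaks down retinoic acid, had a log2 signal of 0.63, 0.77 and 2.61 on the WT arrays and 0.48, 0.44 and 0.36 on the Pck1-CKO arrays. WT 3 stood alone, and the groups did not overlap. The change was -0.91 ± 0.53 (limma adjusted p = 0.296), and without WT 3 it was -0.27 ± 0.07 (0.0717). Cyp26a1, of the same role, changed by 0.18 ± 0.45 (limma adjusted p = 0.813). Cyp2r1, a vitamin D hydroxylase, changed by -0.09 ± 0.10 (limma adjusted p = 0.557). Cyp2u1, a fatty acid hydroxylase, changed by 0.02 ± 0.11 (0.921), and Cyp2w1 by -0.24 ± 0.21 (0.469). Cyp20a1, an orphan P450 of unknown substrate, changed by -0.21 ± 0.07 (limma adjusted p = 0.127).

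Of the steroid hormone genes, 2 of 6 were tested and 0 passed (limma, also 0 at an unadjusted p under 0.05). Cyp17a1, which makes androgen precursors in gonads, had a log2 signal of 1.46, 1.24 and 1.11 on the WT arrays and 1.40, 1.13 and 0.99 on the Pck1-CKO arrays. Its groups overlapped, at -0.10 ± 0.14 (limma adjusted p = 0.667). Cyp21a1, of corticoid synthesis, changed by -0.20 ± 0.15 (limma adjusted p = 0.396). Cyp11a1, Cyp11b1 and Cyp11b2, which are known from adrenal steroid-making cells, were not well above background on any array. Among 6 adrenal markers 4 were lower, at a median log2 change of -0.17, and Mrap, also expressed in fat, was the 1 that passed, higher. Their summed level was 1.77 to 1.98 in WT and 1.99 to 2.39 in Pck1-CKO, and without Mrap it was 1.72 to 1.80 in WT and 1.5 to 1.63 in Pck1-CKO.

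Of the 29 genes that were not tested, 28 were not well above background on any array and Cyp2a12 was so on 1, Pck1-CKO 1. They include Cyp1a2, Cyp7a1, Cyp8b1, Cyp3a16, Cyp3a25, Cyp3a44, Cyp2c37, Cyp2c39, Cyp2c50 and Cyp2c54, all known from liver, and Cyp19a1, the aromatase. For these genes no fold is given.

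By chromosome, 2 of 8 tested genes on chromosome 17 passed, Cyp4f15 and Cyp39a1, and 1 of 7 on chromosome 4, Cyp2j13. These are the calls given above, where 8.04% of all genes passed. The share of all genes on each chromosome was not taken, so the counts are only a description. In GRCm38.p6 order, Cyp2j13 is at one end of its cluster. Cyp4f15 lies between Cyp4f40, not well above background on any array, and Cyp4f14. In the Cyp2d cluster, Cyp2d11, Cyp2d9, Cyp2d12 and Cyp2d34, with changes of 0.33 to 0.47, lie in a row that Cyp2d10, at -0.12, interrupts.

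**Figure D4:**
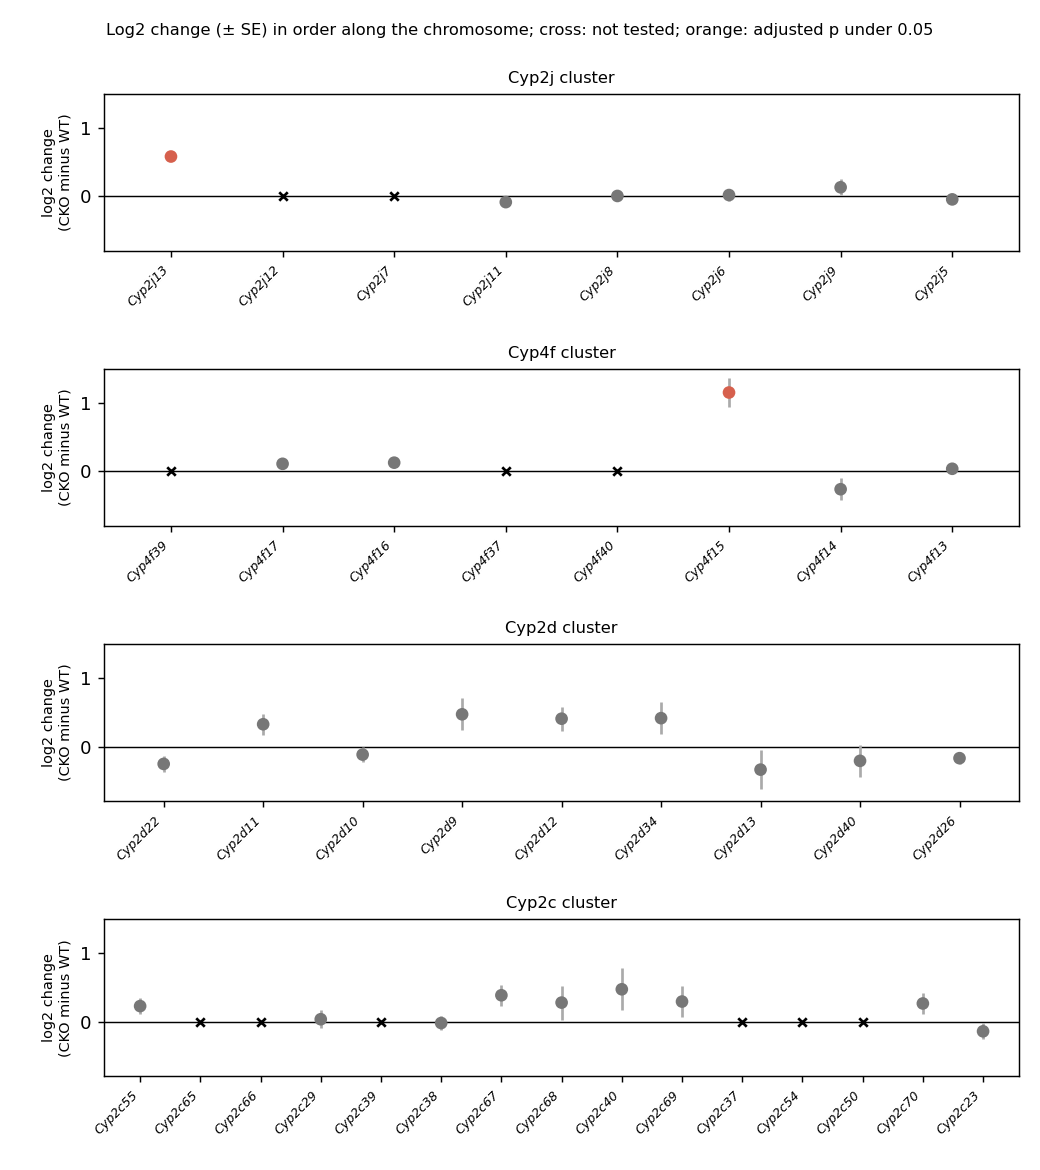
The log2 change (Pck1-CKO minus WT) of genes in their GRCm38.p6 order within the Cyp2j, Cyp4f, Cyp2d and Cyp2c clusters, with bars for 1 SE and crosses for genes not tested. Cyp2j13 (0.58) and Cyp4f15 (1.15) stand above neighbours such as Cyp2j11 (-0.09) and Cyp4f14 (-0.26).

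Genes that work with P450 enzymes or control them were read from lists. Of 11 electron donors and partners, 1 rose, Cyb5r4, a cytochrome b5 reductase, by 0.24 ± 0.05 (limma adjusted p = 0.0440). Por, the main reductase, changed by 0.08 ± 0.07 (limma adjusted p = 0.489). Of 12 heme genes 0 passed (limma, at an unadjusted p under 0.05, 4 higher and 0 lower). Of all 17135 genes, 3003 were higher and 2351 lower at that p. In the heme list 11 changes lay above 0, as did 8947 over all genes. The heme median was 0.10, and Uros was nearest at 0.15 ± 0.04 (limma adjusted p = 0.0625).

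Of 29 tested receptors and factors 1 rose, Pparg, a lipid-sensing nuclear receptor of fat. Its log2 signal was -0.61, -0.54 and -0.56 on the WT arrays and 0.36, 0.24 and 0.63 on the Pck1-CKO arrays. Every Pck1-CKO array was higher, at a change of 0.98 ± 0.10 (limma adjusted p = 0.0154). It moved with the adipose markers above, whose part was not tested. Of 17 other eicosanoid enzymes 0 passed (limma, at an unadjusted p under 0.05, 5 higher and 6 lower), at a median of -0.11. The counts over all 17135 genes at that p were 3003 and 2351. Hpgds, a prostaglandin D synthase, was nearest at -1.35 ± 0.31 (limma adjusted p = 0.0549).

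Of 25 other phase I enzymes 2 rose and 3 fell, at a median of -0.05. The retinaldehyde dehydrogenase Aldh1a3 had a log2 signal of 0.61, 0.71 and 0.40 on the WT arrays and -0.05, -0.05 and -0.09 on the Pck1-CKO arrays. It fell by 0.64 on the log2 scale without overlap (limma adjusted p = 0.0240). The flavin monooxygenase Fmo2 fell by 0.35 (limma adjusted p = 0.0255). The genes that rose were Fmo5, at 0.43 ± 0.09, and the carboxylesterase Ces2c, at 0.38 ± 0.08 (limma adjusted p = 0.0483 and 0.0486).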

How the data were processed

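Total RNA of 6 whole kidney samples was, per the labels, labelled with Cy3, and scans were read with Agilent Feature Extraction 10.7.1.1, per the submitters' processing notes. The deposited scanner files hold a processed intensity per spot, already background-subtracted, per the file headers. A ratio on the linear scale stands in the series matrix that the authors deposited, equal to the processed signal over 1 factor per array within 1% for over 99.9% of probes. Column medians were 0.105, 0.104 and 0.103 (WT arrays) and 0.100, 0.098 and 0.099 (Pck1-CKO arrays).

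The log2 of the deposited intensity was taken, outlier-marked spots were left out (46 to 94 per array, 0 saturated), spots of a probe were averaged and the array's 75th percentile was subtracted. Of 56605 probes, 34675 had 1 RefSeq symbol (GRCm38.p6) and 21930 had none. Kept were probes well above background on 3 or more of the 6 arrays, and each gene was read from its brightest such probe with no missing value. Of 13 other probes of 11 P450 genes, 10 had the sign of the chosen probe. The test was limma 3.58.1 (lmFit, eBayes; R 4.3.3), without covariates, 2-sided, with Benjamini-Hochberg adjustment over 17135 genes and a threshold of 0.05. The number of arrays limits the precision. The procedure was tested on simulated data.

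The members and lists were chosen with earlier results of these data known. Named P450 genes were those past the threshold, up to 3 per role group with the lowest p and 13 fixed names where tested. From companion lists up to 3 were named. 1 gene that this rule picks is not reported here. Cyp2d9, Cyp2d34, Cyp2d26, Cyp2a5, Cyp2a22, Cyp2c40, Cyp2c68, Cyp2c69, Cyp4f14, Cyp2d10, Por, Hnf4a, Fmo5 and Ces2c were named after their values were seen. Sequences are from RefSeq, for 67 of 84 members and 44 of 55 tested. Alternatives covered normalization, background (normexp, offset 50, on median signals, since the files used hold no mean signal), source, filter, probe choice, variance model, array weights, marked spots, left-out arrays and a replicate block. All arrays shared slide 1, so no slide block was fitted.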

Additional observations from a re-analysis of the deposited data

How the results depend on the processing

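The count of 2 higher and 1 lower P450 genes was the same with quantile normalization, series matrix values, marked spots kept and a filter of signal on all arrays. In these fits 7.01% to 10.8% of all genes passed. The count was 3 higher and 1 lower with scaling to the median (17.5% of all genes passed) and with a trended, robust variance (16.5%). It was 2 and 2 with the percentile over probes above background on all arrays (7.95%) and with normexp (11.2%). It was 2 and 0 with probes averaged (6.96%) and 13 and 4 with array weights (34.4%). Without the filter on dim probes it was 0 and 0 (limma, 5 and 5 at an unadjusted p under 0.05), where 142 genes passed. Leaving out 1 array gave 0 to 6 higher and 0 to 1 lower, where 0.146% to 8.93% of all genes passed. The same sample numbers did not pair the arrays (correlations of deviations -0.001, -0.115 and -0.023); with a replicate block the count was 0 higher and 0 lower (limma, 6 and 7 at an unadjusted p under 0.05; 4 genes passed). The median change stayed within 1 SD of the arrays, from -0.0026 to 0.112. Limma adjusted p ranged from 0.00159 to 0.0833 for Cyp2j13, 0.00938 to 0.139 for Cyp4f15 and 0.00634 to 0.161 for Cyp39a1, with no change of sign. Signs turned in genes that did not pass: Cyp2j5 to 0.029, Cyp3a11 to 0.028 and Cyp2a22 to 0.054 scaled to the median, Cyp3a11 to 0.10 and Cyp2a22 to 0.026 with quantiles, Cyp3a11 to 0.26, Cyp2a22 to 0.26 and Cyp2u1 to -0.063 with array weights, Cyp3a13 to -0.011 and Cyp2u1 to -0.024 with normexp, Cyp2u1 to -0.019 with the other percentile, and Cyp2d26 to 0.063 with probes averaged. Over the fits that left out 1 array, values ran from -0.0077 to 0.15 for Cyp1b1, -0.062 to 0.088 for Cyp2u1, -0.033 to 0.32 for Cyp3a13, -0.19 to 0.69 for Cyp26a1, -0.34 to 0.19 for Cyp3a11 and -0.27 to 0.41 for Cyp2a22. Apart from steps that drop genes or arrays, the cause was not tested. Dim genes such as Cyp4f15 and Cyp3a11 are limited by signal over background.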
